A study of Arabidopsis thaliana with 8 samples.

Results

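Seedlings of a 35S:LEC2-GR line of Arabidopsis thaliana were compared with non-transgenic seedlings of the same accession, Ws-0, when both had been in dexamethasone for 4 h. The comparison takes 4 of the 8 arrays of the series, chosen by their labels: 2 of the line and 2 of wild type, each of 8 day old whole seedlings and each a biological replicate according to the study's design. Of the 4 remaining arrays, 2 were made from the same line without treatment and 2 from the line after 1 h in dexamethasone, and they serve here to show how each gene stood in the line before 4 h. All 8 arrays are Affymetrix ATH1 arrays, hybridised with biotin-labelled target from polyA RNA, and the deposited values are MAS5 signals on a linear scale.

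LEAFY COTYLEDON2 (LEC2) is a B3-domain transcription factor of the embryo. With LEC1, ABI3 and FUSCA3 it drives seed maturation, when embryos fill with storage proteins and oil and become tolerant of drying, and its activity in vegetative tissue is known to bring on seed traits and somatic embryos. In the line a viral 35S promoter, active in most tissues, makes LEC2 joined to the steroid-binding domain of the glucocorticoid receptor (GR). That domain holds the fusion out of the nucleus until dexamethasone is given. Because both groups had dexamethasone for the same time, a response to the steroid alone is shared by both sides. Any difference between the line and wild type that was there before treatment is not. Untreated wild type seedlings were not analysed here. The labels do not say how many independent transformants stand behind the line.

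The arrays were similar in scale. Their median signals lay between 170.1 and 191.1, and replicates correlated at 0.970 to 0.978 over all probe sets on the log2 scale. The 3′ to 5′ signal ratio of the GAPDH control was 2.46 and 1.59 in the line at 4 h and 2.74 and 2.67 in wild type, and that of actin was 9.21 and 8.65 in the line and 10.9 and 12.1 in wild type. Both ratios were lower on both line arrays than on both wild type arrays, and their part in the results was not tested. The instrument records carry a comment on high background at the left of an image, and the array it belongs to is not named here. The records also hold a hybridisation time for the wild type and uninduced arrays and none for the 1 h and 4 h arrays. Whether these were separate runs is not stated, and such a run and the groups cannot be told apart in 4 h line against wild type. No probe set with a single gene name carries LEC2, so the labels were not checked against the transgene's transcript. Leafy tissue was evident on every array: RCA, the activase of Rubisco, read 23596 and 29496 in the line at 4 h and 26527 and 28864 in wild type.

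Calls were made in limma on log2(signal + 45), at a Benjamini-Hochberg adjusted p under 0.05. Of 22746 probe sets that are not controls, 755 (3.32%) were called, 414 (1.82%) higher in the line and 341 (1.5%) lower. The rises were larger than the falls: 86 of the higher probe sets differed by at least 4-fold and 28 by at least 8-fold, against 9 and 0 of the lower ones. The higher probe sets had a median signal of 865.2 in the line and 283.7 in wild type, and the lower ones 447.4 in the line and 964.0 in wild type. Their median size of change was 1.25 and 1.03 on the log2 scale. A single gene name belongs to 350 of the 755, and the largest rise (6.25) and the largest fall (2.66) lie on probe sets without one.

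With 2 arrays a side the calls depend on each array. The count was 341 without replicate 1 and 309 without replicate 2 of the line, and 287 without replicate 1 and 249 without replicate 2 of wild type. In all, 191 probe sets, 132 higher and 59 lower, were called in each of these 4 fits, and 309 of the 755 in none. The arrays of the 2 groups did not overlap at any of the 755, but that holds for 43.3% of all probe sets tested.

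**Figure D1:**
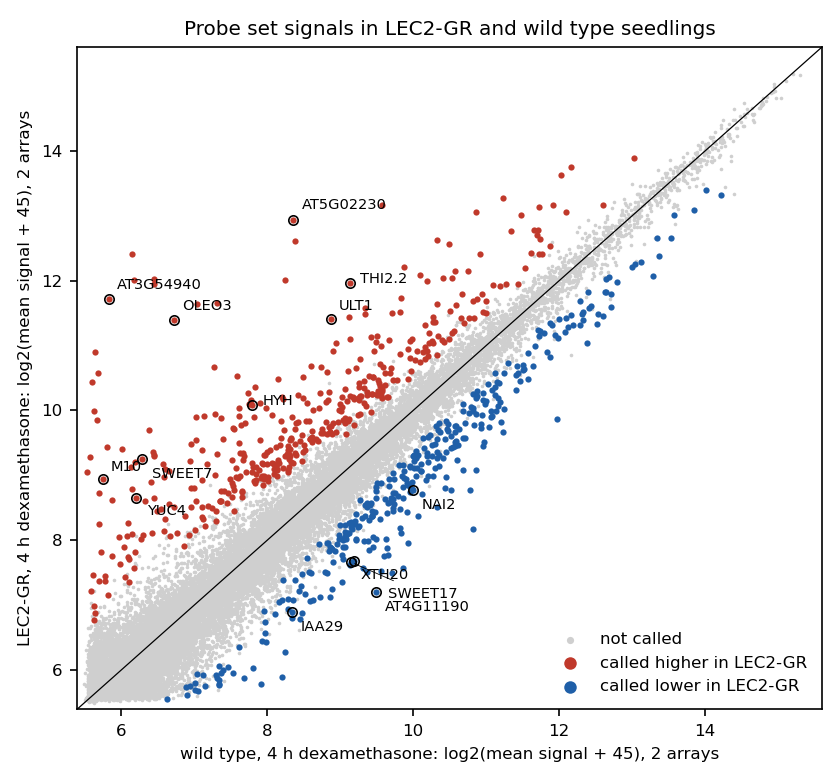
Mean signal of each probe set in LEC2-GR seedlings (vertical) against wild type (horizontal), both after 4 h in dexamethasone, as log2(mean signal + 45) over 2 arrays. Called probe sets are coloured, circled points are named, and the line marks equal signal; the 28 rises of at least 8-fold stand far above the line, while no called fall reaches that size.

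The largest rise with a gene name was in a gene placed here in the list of storage protein proteases. AT3G54940, a papain-type cysteine protease, read 2834 and 3789 in the line and 8.3 and 15.7 in wild type, a log2 change of 5.87 (SE 0.29, adjusted p = 2.68e-06). It had been at 57.9 and 49.5 in the uninduced line and at 190.8 and 367.8 after 1 h. So the 4 h arrays lay above all others, and the 1 h arrays above the uninduced ones.

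OLEO3, an oleosin that coats the oil bodies of seeds, stood next among the seed genes. Its signal was 2647 and 2623 in the line against 40.4 and 80.3 in wild type (log2 4.70, SE 0.25, adjusted p = 3.95e-06). The uninduced line had 252.6 and 138.7 and the 1 h line 456.9 and 439.3. Each line array was above both wild type arrays, and most of the gap opened after 1 h.

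AT2G34700, AT5G08460 and AT1G70270 were also low in wild type and higher at 4 h than at 1 h in the line. AT2G34700, of the Ole e 1 family of cell wall proteins, had 3049 and 3233 in the line and 58.5 and 114.4 in wild type (log2 4.63, SE 0.31). After 1 h it was still at 134.0 and 117.9, close to the higher of the uninduced arrays (129.4 and 47.3). AT5G08460, a GDSL-type lipase, had 3055 and 3290 in the line and 99.5 and 129.7 in wild type (log2 4.34, SE 0.22), with 434.8 and 584.1 after 1 h. AT1G70270 rose by 2.96 (SE 0.39), with 500.9 and 716.9 in the line and 16.8 and 66.6 in wild type.

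AT5G02230, a haloacid dehalogenase-like hydrolase, followed another course. It read 7110 and 8528 in the line and 266.8 and 300.9 in wild type (log2 4.58, SE 0.12, adjusted p = 2.41e-08). The line had 504.3 and 533.1 uninduced and 7541 and 7656 after 1 h, so its rise was complete by the first time point, and 4 h did not differ from 1 h (log2 0.04, adjusted p = 0.923). AT3G43270, a pectin methylesterase, which removes methyl groups from wall pectin, lay between these patterns. It had 6212 and 6191 in the line and 289.4 and 288.6 in wild type (log2 4.23, SE 0.14, adjusted p = 5.82e-08), after 453.7 and 581.9 uninduced and 1931 and 2241 at 1 h.

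**Figure D2:**
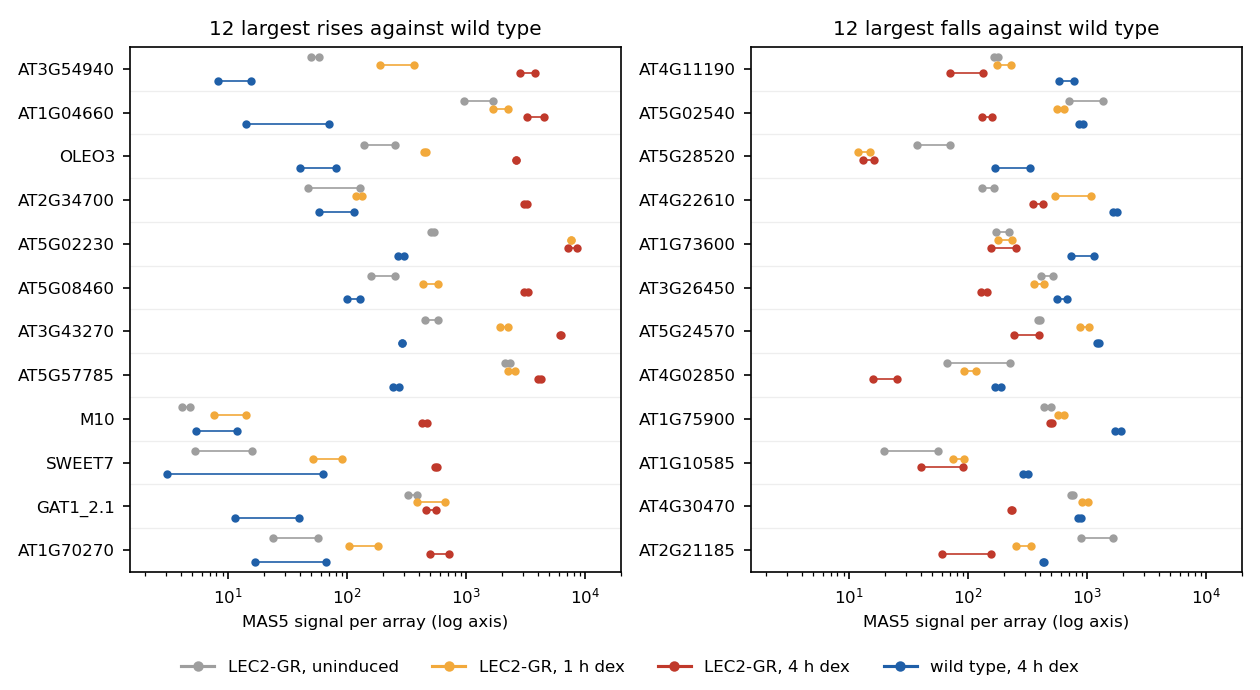
MAS5 signal per array, on a log axis, of the 12 named genes with the largest rises and the 12 with the largest falls; each dot is 1 array and a line joins the 2 arrays of a group. AT5G02230 is as high at 1 h as at 4 h, AT1G04660 and AT5G57785 are already high in the uninduced line, and AT1G73600 and AT1G75900 are as low in the uninduced line as at 4 h.

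Seed maturation genes were sparsely covered, and each call among them was a rise. The 7 lists of storage proteins, oil body proteins, late embryogenesis abundant (LEA) proteins, storage protein proteases, other seed genes, fatty acid and oil synthesis, and embryo regulators have 57 probe sets with a name of their own. Of these, 22 had an unadjusted limma p under 0.05, as had 2961 of all 22746 probe sets. Called higher were 12 (21.1%) and lower 0, where 1.82% and 1.5% of all probe sets were. In the 4 fits without 1 array the number was 8 or 9 higher and again 0 lower. The median change over the 57 was 0.12, against -0.03 over all probe sets, so a minority of members carried the rise. Of the 57, 32 had a mean signal under 100 in both groups, near the bottom of the scale. The lists of storage proteins, oil body proteins, LEA proteins and other seed genes alone had 5 of 34 called higher (14.7%) and 0 lower. The median change over those 34 was 0.06, and 27 of them had a mean signal under 100 in both groups. All 7 lists were chosen with earlier results of these data known, so these shares are not a test of seed maturation. In whole seedlings, a change in the number of cells that use a gene and a change in transcript per cell cannot be told apart.

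Among 7 storage protein genes, 1 was called. The cupin AT4G36700 had 238.5 and 281.9 in the line and 7.6 and 6.4 in wild type (log2 2.55, SE 0.32, adjusted p = 0.00116), and the line still had 7.3 and 40.4 after 1 h. PAP85, a vicilin-like storage protein, had 35.0 and 47.1 in the line and 7.8 and 10.4 in wild type, which did not pass (adjusted p = 0.556). The other 5 differed by -0.17 to 0.15. Of 3 oil body genes, OLEO3 was the one called. AT2G25890 read 90.2 and 13.7 in the line and 8.3 and 3.1 in wild type, so only replicate 1 stood out (adjusted p = 0.34), and AT3G01570 read 81.7 and 5.8 in the line against 96.2 and 91.5 in wild type.

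The LEA proteins, which protect cells as seeds dry, had 18 probe sets, of which 2 were called. M10 had 471.2 and 422.7 in the line and 11.9 and 5.4 in wild type (log2 3.20, SE 0.28, adjusted p = 1.06e-04), and 7.7 and 14.3 after 1 h, so its rise lay between 1 h and 4 h. LEA18 had 110.8 and 129.0 in the line and 25.3 and 22.7 in wild type (log2 1.26, adjusted p = 0.0388). That call was lost whichever of the 4 arrays was left out (adjusted p = 0.151 to 0.24), and LEA18 read 211.5 and 191.0 after 1 h. The remaining 16 LEA genes had changes of -0.88 to 0.36.

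Among the 8 genes listed as proteases that mature or digest storage proteins in vacuoles, AT3G54940 and the aspartic protease AT1G62290 were called. The action of AT3G54940 on storage proteins was not tested. AT1G62290 had 1003 and 862.5 in the line and 524.6 and 600.3 in wild type (log2 0.69, adjusted p = 0.0407), a call lost whichever array was left out (0.116 to 0.299). The uninduced line had 923.2 and 1026, from which 4 h differed by -0.06 (adjusted p = 0.853). The 4 vacuolar processing enzymes were not called and differed by -0.24 to 0.49, BETA-VPE, the seed form, with 179.0 and 218.2 in the line and 130.6 and 125.5 in wild type. Of 6 other seed genes AT1G65090 was called (216.9 and 231.0 in the line, 24.4 and 21.4 in wild type; log2 1.99, adjusted p = 0.013), again lost without any 1 array (0.0857 to 0.126). The defensin PDF2.1 had 404.6 and 429.4 in the line and 204.5 and 194.7 in wild type (adjusted p = 0.267), while the uninduced line had 14.3 and 36.4.

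Fatty acid synthesis supplies the oil of seeds and the membranes of every cell. Of its 9 measured genes 2 were called higher and 0 lower, against 1.82% and 1.5% of all probe sets. An unadjusted limma p under 0.05 was found for 7 of the 9, and for 2961 of all 22746 probe sets. Changes over the 9 ran from -0.78 to 1.58. The 2 called genes encode acyl carrier protein desaturases, which put the first double bond into stearate. AT3G02630 had 2661 and 2779 in the line and 1148 and 1231 in wild type (log2 1.16, SE 0.14, adjusted p = 8.53e-04), with 1093 and 1177 after 1 h. AT5G16240 had 575.5 and 542.8 in the line and 191.1 and 128.0 in wild type (log2 1.58, adjusted p = 0.00959), but lost its call in all fits without 1 array except that without wild type replicate 1 (0.0886 to 0.125). The acyl-ACP thioesterase AT4G13050 had 841.3 and 833.0 in the line against 542.1 and 553.4 in wild type (log2 0.57, adjusted p = 0.064), and the thioesterase FATB had 1872 and 2013 in the line against 2419 and 2915 in wild type (log2 -0.44, adjusted p = 0.193).

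**Figure D3:**
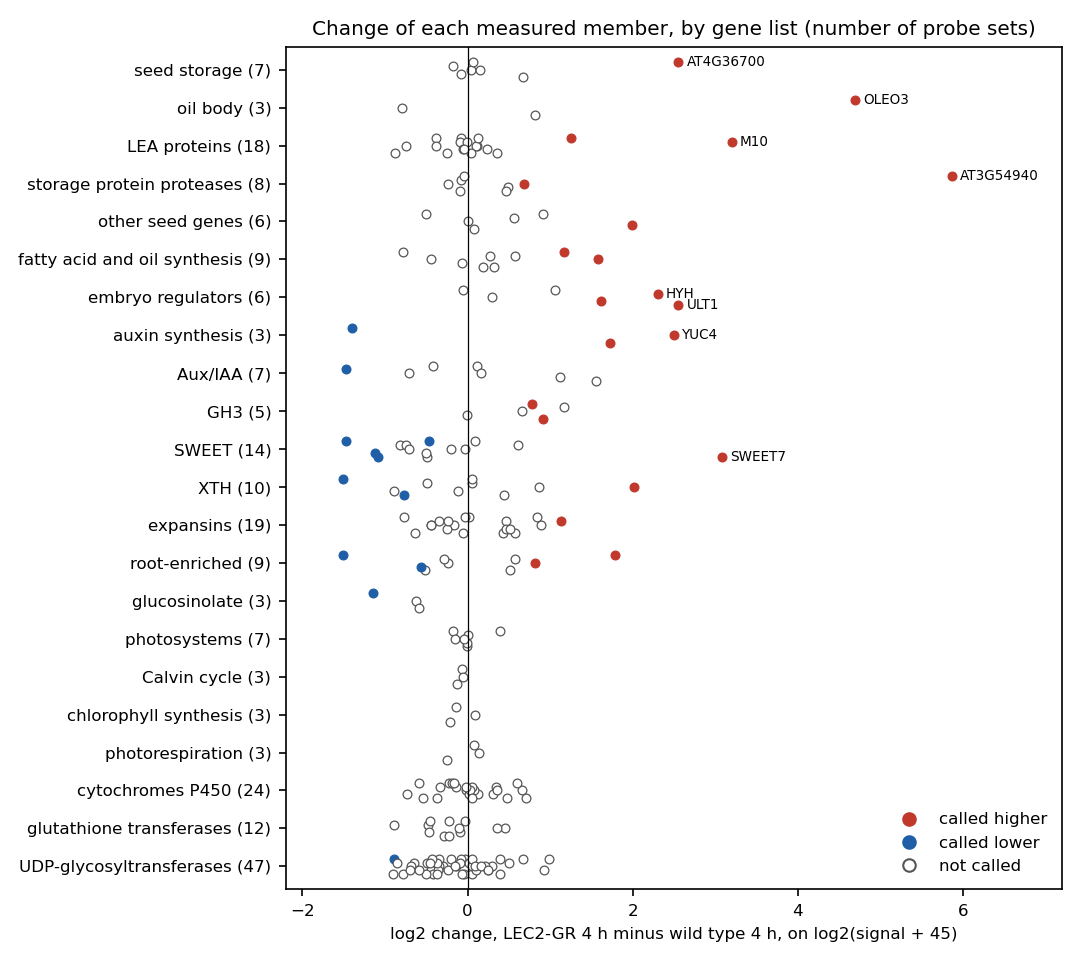
log2 change of every measured member of each gene list, line at 4 h minus wild type at 4 h, on log2(signal + 45); filled points passed the test and open points did not. In the seed lists a few members lie far to the right of a cluster around 0, and the photosystem, Calvin cycle, chlorophyll and photorespiration lists lie close to 0 throughout.

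Of 6 measured regulators of embryos and seeds, 3 rose, where 1.82% of all probe sets did. That list was chosen with earlier results of these data known, so the count is not a test of embryo regulators. HYH, a bZIP factor of light signalling related to HY5, had 1084 and 1006 in the line and 164.4 and 188.4 in wild type (log2 2.30, SE 0.18, adjusted p = 4.13e-05). ULT1, a trithorax-type factor that limits meristem size, had 2699 and 2678 in the line and 379.8 and 467.3 in wild type (log2 2.55, SE 0.16, adjusted p = 1.34e-05). PHV, a class III homeodomain factor of the upper side of organs, had 2673 and 1777 in the line and 705.3 and 657.2 in wild type (log2 1.62, SE 0.22, adjusted p = 0.00192). For each of these genes both line arrays lay above both wild type arrays, and each call held without any 1 array.

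Their courses differed. HYH was at 150.6 and 211.9 uninduced and 1442 and 1454 after 1 h, so its 1 h arrays were the highest, although 4 h against 1 h did not pass (log2 -0.46, adjusted p = 0.143). ULT1 had reached 2122 and 1941 by 1 h. PHV was at 1034 and 1108 after 1 h and rose again by 4 h (log2 1.00, adjusted p = 0.0141). EEL, a bZIP factor that acts on LEA genes, had 222.6 and 240.0 in the line and 90.8 and 83.8 in wild type (log2 1.06, SE 0.31, adjusted p = 0.12). AGL18 differed by 0.30 (adjusted p = 0.629), and BBM, an inducer of somatic embryos, was at 2.5 and 6.0 in the line and 4.0 and 8.7 in wild type, the bottom of the scale in both.

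Auxin genes moved both ways. The 3 measured genes of auxin synthesis are flavin monooxygenases of the YUCCA family, which make auxin from indole-3-pyruvate. YUC4 had 340.1 and 374.5 in the line and 9.1 and 48.7 in wild type (log2 2.50, SE 0.33, adjusted p = 0.00175), and YUC2 had 556.3 and 561.8 in the line and 137.1 and 139.3 in wild type (log2 1.72, SE 0.19, adjusted p = 5.85e-04). After 1 h YUC4 was at 190.8 and 167.2 and YUC2 at 460.1 and 410.3. For neither did 4 h against 1 h pass (log2 0.845, adjusted p = 0.151 for YUC4 and log2 0.333, adjusted p = 0.36 for YUC2). YUC6 was lower, with 20.3 and 22.1 in the line and 145.9 and 115.7 in wild type (log2 -1.40, adjusted p = 0.0388). Its call was lost whichever array was left out (0.166 to 0.266), unlike those of YUC2 and YUC4.

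Of 7 Aux/IAA genes, whose proteins repress the auxin response, 1 was called (14.3%, against 3.32% of all probe sets). IAA29 had 99.5 and 48.6 in the line and 292.9 and 265.6 in wild type (log2 -1.48, adjusted p = 0.0115), and lost its call in all fits without 1 array except that without line replicate 1 (0.0975 to 0.124). The uninduced line had 686.6 and 605.9, more than any treated array. IAA30 and IAA31 did not pass, with values in the other direction: 207.0 and 134.8 in the line against 9.0 and 52.8 in wild type for IAA30 (adjusted p = 0.0549) and 118.7 and 85.3 in the line against 32.4 and 12.9 in wild type for IAA31 (adjusted p = 0.0697). Of 5 GH3 genes, which join auxin or other acids to amino acids, GH3.17 (log2 0.91) and GH3.3 (log2 0.78) were called higher, and neither call held in any fit without 1 array (0.0537 to 0.263 and 0.0965 to 0.362). GH3.17 had 497.0 and 524.6 at 4 h and 883.7 and 676.1 in the uninduced line (adjusted p = 0.0719).

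**Figure D4:**
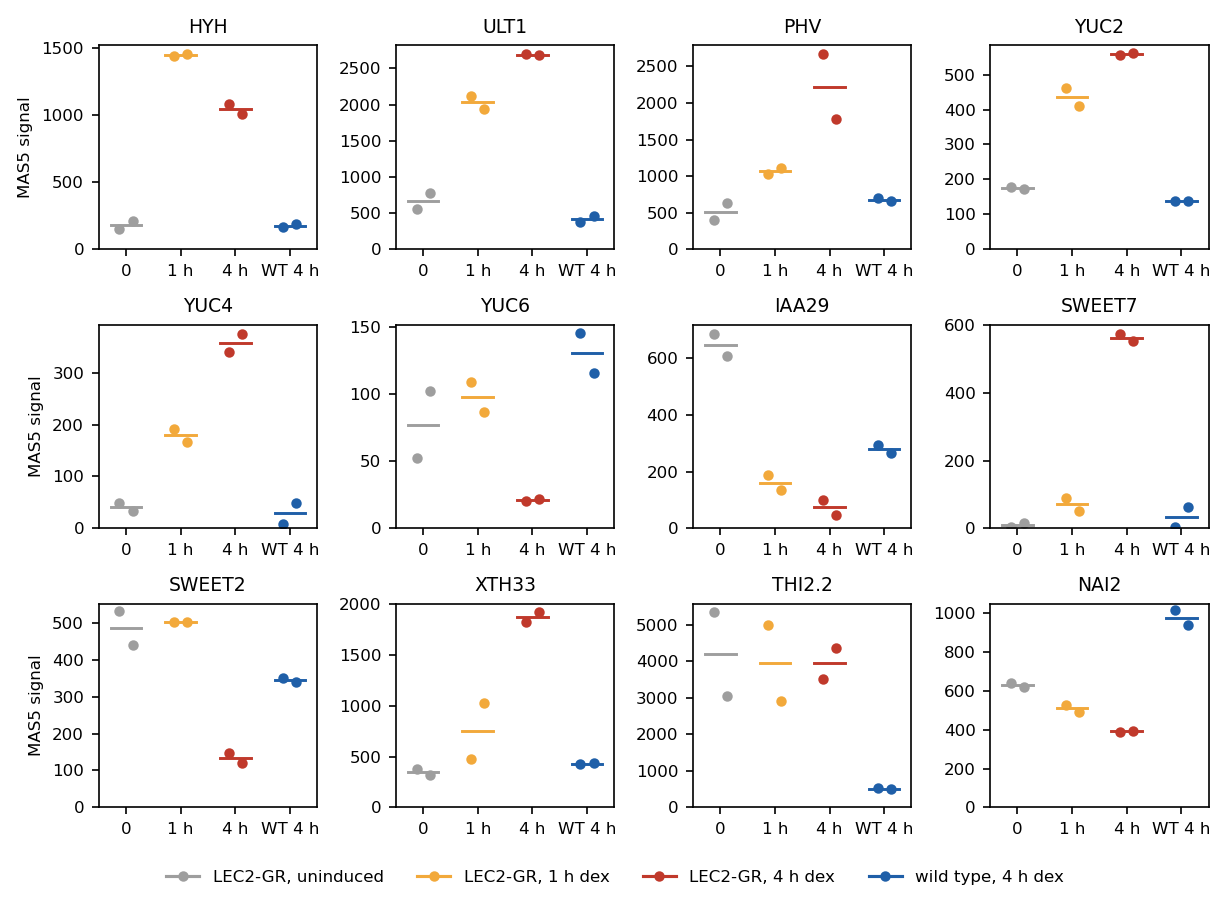
MAS5 signal of 12 genes in the line uninduced, after 1 h and after 4 h in dexamethasone, and in wild type after 4 h (WT 4 h); dots are single arrays, bars the mean of 2, and each axis starts at 0. HYH and ULT1 are high by 1 h, SWEET7 and XTH33 rise chiefly between 1 h and 4 h, THI2.2 is high in every group of the line, and YUC6, SWEET2 and NAI2 are lowest in the line at 4 h.

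The SWEET family of sugar transporters, which let sugars leave cells or enter the vacuole, had 1 member higher and 4 lower among 14, against 1.82% of all probe sets higher and 1.5% lower. SWEET7 had 572.9 and 551.3 in the line and 3.1 and 62.5 in wild type (log2 3.08, SE 0.40, adjusted p = 0.00148), and held its call in each fit without 1 array. SWEET17, a fructose carrier of the vacuole, had 134.8 and 180.8 in the line and 444.1 and 598.5 in wild type (log2 -1.48, adjusted p = 0.00456). SWEET2 had 148.4 and 121.3 in the line and 351.0 and 339.0 in wild type (log2 -1.12, adjusted p = 0.00767). SWEET7 thus came up from the bottom of the scale, while the members that fell had been well measured in wild type.

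SWEET1 (log2 -1.08, adjusted p = 0.0176) and SWEET11 (log2 -0.47, adjusted p = 0.0354), a sucrose carrier of phloem loading, were the other 2 that fell. Neither held its call without any 1 array (0.0773 to 0.19 and 0.147 to 0.257). SWEET2 held only without line replicate 1 (0.0711 to 0.0875 otherwise), and SWEET17 lost its call without line replicate 1 or wild type replicate 2 (0.053 and 0.0921). SWEET17 stood at 208.4 and 170.6 in the uninduced line, close to its level at 4 h, and the other 3 were higher uninduced than at 4 h. The remaining 9 members changed by -0.82 to 0.61.

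Genes of cell wall loosening also moved both ways. XTH33, a xyloglucan endotransglucosylase, had 1831 and 1928 in the line and 430.0 and 435.0 in wild type (log2 2.01, SE 0.26, adjusted p = 0.00162). EXPA4, an expansin, had 1294 and 1424 in the line and 663.8 and 535.4 in wild type (log2 1.13, SE 0.15, adjusted p = 0.00217). The pectin methylesterase PME61 had 394.4 and 670.2 in the line and 37.3 and 63.3 in wild type (log2 2.57, SE 0.30, adjusted p = 6.76e-04), and was already at 371.4 and 386.3 after 1 h. These 3 calls held in each fit without 1 array.

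Lower in the line were XTH20 (134.3 and 188.4, against 517.7 and 561.2 in wild type; log2 -1.51, adjusted p = 0.0101) and EXGT-A3 (1437 and 1208, against 2416 and 2132 in wild type; log2 -0.77, adjusted p = 0.0149). XTH20 kept its call only without line replicate 2 (0.097 to 0.135 otherwise) and EXGT-A3 only without line replicate 1 (0.0788 to 0.172 otherwise). XTH20 read 103.0 and 91.0 in the uninduced line. In all, 1 of 10 XTH genes rose and 2 fell, 1 of 19 expansins rose, and 1 of 4 pectin enzymes matched by symbol rose, against 1.82% of all probe sets higher and 1.5% lower. Those 4 leave out AT3G43270 and ATPMEPCRD, both called higher, the second with 374.4 and 508.5 in the line and 151.8 and 220.9 in wild type (log2 1.08, adjusted p = 0.0333), lost whichever array was left out (0.0804 to 0.286).

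Several called genes already stood apart from treated wild type in the uninduced line. AT1G04660, a glycine-rich protein gene, had 3275 and 4550 in the line at 4 h and 70.0 and 14.3 in wild type (log2 5.56, SE 0.32, adjusted p = 5.76e-06), but the uninduced line already had 965.3 and 1679. AT5G57785 had 4221 and 3980 in the line against 244.6 and 273.9 in wild type (log2 3.77, SE 0.12), with 2353 and 2109 uninduced. GAT1_2.1, a glutamine amidotransferase, had 463.9 and 562.0 in the line against 39.7 and 11.5 in wild type (log2 3.01, SE 0.29), with 325.1 and 385.6 uninduced. For GAT1_2.1 the line at 4 h did not differ from the uninduced line (adjusted p = 0.309). The uninduced line and wild type differ in dexamethasone as well as in the transgene, which cannot be told apart here.

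THI2.2, a thionin of plant defence, had 3521 and 4361 in the line and 526.2 and 508.9 in wild type (log2 2.82, SE 0.27, adjusted p = 1.88e-04), and the uninduced line had 5338 and 3053. AAH, the allantoate amidohydrolase of purine breakdown, had 1085 and 1122 in the line against 384.9 and 439.9 in wild type (log2 1.33, SE 0.12), with 1359 and 1434 uninduced. For both genes no test separated 4 h from the uninduced line (adjusted p = 0.95 for THI2.2 and 0.0884 for AAH). In both, the uninduced line was already above both wild type arrays.

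The same held on the lower side. AT1G75900 had 502.8 and 489.8 in the line and 1700 and 1914 in wild type (log2 -1.77, SE 0.14, adjusted p = 6.19e-05), and 499.2 and 433.2 in the uninduced line. AT1G73600 had 252.3 and 156.2 in the line and 725.8 and 1136 in wild type (log2 -1.96, SE 0.27), and 218.8 and 173.0 uninduced; without wild type replicate 2 its adjusted p was 0.0619. AT4G22610 had 429.6 and 353.4 in the line against 1789 and 1634 in wild type (log2 -2.01, SE 0.26), yet the uninduced line had only 131.3 and 164.7, so at 4 h it was higher than uninduced (log2 1.18, adjusted p = 0.00763) and lower than wild type. AT5G24570 had 396.0 and 243.2 in the line against 1220 and 1252 in wild type (log2 -1.85, SE 0.19), with 389.1 and 400.7 uninduced and 1034 and 878.0 after 1 h.

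Among the 12 largest falls other genes were lowest in the line at 4 h. AT5G02540 had 158.7 and 130.8 in the line and 916.2 and 849.3 in wild type (log2 -2.29, SE 0.25, adjusted p = 4.25e-04), and 708.8 and 1353 uninduced. AT4G30470 had 230.0 and 235.3 in the line against 845.7 and 881.1 in wild type (log2 -1.71, SE 0.14, adjusted p = 6.73e-05), and AT3G26450 had 145.3 and 129.2 in the line against 672.6 and 554.2 in wild type (log2 -1.85, SE 0.20, adjusted p = 4.28e-04). Each of these 3 was also lower at 4 h than at 1 h, by 1.27 to 1.86 on the log2 scale.

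The largest named fall was that of AT4G11190, with 70.4 and 133.0 in the line and 768.9 and 584.7 in wild type (log2 -2.32, SE 0.27, adjusted p = 8.06e-04). In the uninduced line it had 164.7 and 179.9, and 4 h did not differ from it (adjusted p = 0.165). AT5G28520 had 16.1 and 13.0 in the line and 331.3 and 168.5 in wild type (log2 -2.25, adjusted p = 0.0046; 0.0567 without line replicate 2 and 0.0509 without wild type replicate 1). The calls of AT4G02850 and AT1G10585 were lost without any 1 array (0.153 to 0.246 and 0.0513 to 0.182), and AT2G21185 kept its call only without line replicate 1 (0.131 to 0.151 otherwise).

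NAI2, PYK10, JAL34 and JAL22, genes of the ER body, were called lower in the line, and of these NAI2 alone kept its call in each fit without 1 array. ER bodies are compartments of seedling epidermis and roots that store β-glucosidases, and NAI2 is needed to form them. NAI2 had 389.2 and 393.6 in the line and 1020 and 938.2 in wild type (log2 -1.23, SE 0.14, adjusted p = 6.37e-04), a call that held without any 1 array, and the line had 642.3 and 621.9 uninduced and 529.5 and 493.3 after 1 h. PYK10, the main β-glucosidase of ER bodies, had 8833 and 7633 in the line against 12590 and 11777 in wild type (log2 -0.57, adjusted p = 0.034). JAL34 and JAL22, jacalin lectins that gather with PYK10, were lower by 0.83 (adjusted p = 0.00418) and 0.86 (adjusted p = 0.013). JAL34 had 3081 and 2922 in the line and 5443 and 5323 in wild type, and kept its call only without line replicate 1 (0.0539 to 0.057 otherwise). PYK10 and JAL22 lost theirs without any 1 array (0.0772 to 0.274 and 0.0774 to 0.143). These 4 genes were picked after their values had been seen, among 70 called genes that carry a symbol. Of 20 genes with a BGLU symbol, a stem that does not take in PYK10, limma called 2 higher (BGLU19 and BGLU28) and 0 lower. Of all probe sets 1.82% were called higher and 1.5% lower. BGLU19 read 150.9 and 113.0 in the line and 3.4 and 4.4 in wild type, and BGLU28 239.3 and 213.6 against 50.7 and 17.2. At an unadjusted limma p under 0.05, 3 of the 20 were lower, and 2961 of all 22746 probe sets differed in either direction.

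Of those 70 genes, 43 were higher and 27 lower, and 25 were called in each fit without 1 array, 21 higher and 4 lower. The 4 were NAI2, the serine carboxypeptidase-like scpl35, the aspartic protease NANA and the methionine sulfoxide reductase MSRB9. NANA had 212.6 and 159.4 in the line and 715.9 and 539.2 in wild type (log2 -1.54, SE 0.20, adjusted p = 0.0016). MSRB9 had 2250 and 2088 in the line against 4125 and 3885 in wild type (log2 -0.87, SE 0.12, adjusted p = 0.00177), and scpl35 had 962.4 and 1034 in the line against 2524 and 2230 in wild type (log2 -1.21, SE 0.16, adjusted p = 0.00203). For NANA the uninduced line was at 407.2 and 474.1, between the 2 groups, while scpl35 was as low uninduced, at 695.1 and 884.5. The carboxypeptidase-like genes scpl50 (log2 -1.39, adjusted p = 0.00522) and scpl48 (log2 -1.09, adjusted p = 0.00688) were lower too. Neither of these 2 calls held in each fit without 1 array. Of 29 genes with an scpl symbol 3 were called lower, 0 higher and 26 not (10.3% called, against 3.32% of all probe sets). Their median change was 0.04.

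Higher genes with a symbol included SIM and AOP3. SIM, an inhibitor of cyclin-dependent kinases that promotes endoreduplication in trichomes, had 1274 and 1556 in the line and 316.2 and 316.7 in wild type (log2 2.01, SE 0.14, adjusted p = 2.76e-05), and had 1096 and 1104 after 1 h. AOP3, an oxygenase that modifies glucosinolate side chains, had 514.4 and 463.8 in the line and 64.1 and 47.2 in wild type (log2 2.41, SE 0.31, adjusted p = 0.0014), with 84.0 and 62.7 after 1 h. SIM was thus early and AOP3 late. CW14 (log2 2.34), AR781 (log2 1.73) and the leucine-rich repeat protein DRT100 (log2 1.54) were higher in every fit without 1 array as well. The kinase gene APK1A, at 1055 and 1132 in the line and 493.8 and 510.8 in wild type (log2 1.06, SE 0.12), had been higher still after 1 h, at 2572 and 2539.

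Of 3 genes of glucosinolate synthesis, the defence compounds of this plant family, BCAT4 was called lower, against 1.5% of all probe sets. All 3 had an unadjusted limma p under 0.05, as had 2961 of all 22746 probe sets. BCAT4, which starts the lengthening of methionine, had 796.6 and 512.6 in the line and 1297 and 1661 in wild type (log2 -1.14, adjusted p = 0.0256), a call kept only without line replicate 1 (0.0951 to 0.259 otherwise). UGT74B1, which glucosylates the core of the molecule, differed by -0.58 (adjusted p = 0.0802) and AT2G31790 by -0.63 (adjusted p = 0.14). AOP3, which is not in that list, was higher.

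Of 9 root-enriched genes measured, 2 rose and 2 fell, a share of 44.4% called against 3.32% of all probe sets. The peroxidase AT3G01190 had 2319 and 3415 in the line and 694.8 and 892.1 in wild type (log2 1.78, SE 0.19, adjusted p = 3.7e-04). The peroxidase AT5G17820 had 798.5 and 1008 in the line against 448.4 and 535.3 in wild type (log2 0.82, adjusted p = 0.0193), a call kept only without line replicate 1 (0.0775 to 0.201 otherwise). XTH20 and PYK10 were the 2 that fell. Summed over the 9 genes, the signal was 13734 and 14442 in the line and 15650 and 15337 in wild type. Most of that sum is PYK10, and without it the other 8 genes summed to 4901 and 6809 in the line and 3059 and 3560 in wild type, so the direction of the sum turned. Whether the share of root tissue had a part in these results was not tested. For anther and pollen genes the sum of 2 was 20.7 and 14.9 in the line and 47.4 and 37.6 in wild type, with AMS at 6.4 and 4.3 in the line and 36.0 and 6.3 in wild type. The 4 epidermal genes summed to 380.4 and 428.0 in the line and 388.8 and 363.5 in wild type.

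None of 16 nucleus-encoded photosynthesis genes passed the test, where 3.32% of all probe sets did, and a count of 0 among so few says little. Measured under a single gene name were 7 of 47 listed genes of the photosystems and electron transport and 3 of 19 of the Calvin cycle. Of chlorophyll synthesis 3 of 14 were measured, and of photorespiration 3 of 11. Among these genes of the photosystems and electron transport, the Calvin cycle, chlorophyll synthesis and photorespiration, limma called 0, and 0 had an unadjusted p under 0.05. Their changes ran from -0.25 to 0.40 with a median of -0.05, and the 95% intervals of the single genes lay within -0.55 and 0.87. LHCB4.2, an antenna protein of photosystem II, had 10184 and 10027 in the line and 9621 and 10714 in wild type, and PRK, the phosphoribulokinase of the Calvin cycle, had 9754 and 8998 in the line and 9122 and 11581 in wild type. SBPASE, another Calvin cycle enzyme, had 9711 and 8777 in the line against 9445 and 9711 in wild type. The groups overlapped for each of these genes. Summed over the 7 genes of the photosystems and electron transport, the signal was 107591 and 121761 in the line at 4 h. The uninduced line had 174846 and 187668. The median change at 4 h against the uninduced line was -0.56 for that list. It was -0.71 for the Calvin cycle, -0.72 for photorespiration and -0.04 for chlorophyll synthesis. A group of 43 probe sets of photosynthesis genes encoded in the plastid was added after its values had been seen. Of these 43, 1 was called higher and 0 lower by limma (2.33%, against 3.32% of all probe sets). An unadjusted limma p under 0.05, found for 2961 of all 22746 probe sets, was found for 10 of the 43. The changes of the 43 ran from -0.82 to 1.60 with a median of 0.34. The called gene was atpH, of the plastid ATP synthase, with 344.4 and 576.1 in the line and 171.5 and 119.4 in wild type (log2 1.38, adjusted p = 0.0355), a call lost whichever array was left out (0.0585 to 0.321). The uninduced line had 393.9 and 347.5 for atpH. The reference genes PEX4 and AT4G34270 differed by 0.06 and 0.07.

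limma called 0 of 24 cytochromes P450 (4 had an unadjusted p under 0.05), 0 of 12 glutathione transferases (1) and 0 of 44 MADS-box probe sets (4). Over all 22746 probe sets, 2961 had an unadjusted p under 0.05. Many of the MADS-box and cytochrome P450 probe sets were dim. Of these, 6 of 44 and 11 of 24 passed the filter on low signal, against 15022 of all 22746 probe sets, while 9 of 12 glutathione transferases passed. Of the 755 called probe sets 735 passed. The filter asks for a signal above the 40th percentile on at least 2 arrays, so the 2 line arrays of a called rise can meet it alone. At 3.32% of all probe sets called, a count of 0 among so few says little about a family. Of 22 probe sets that a symbol or synonym names as bZIP 0 were called (2), a group that leaves out HYH, and of 7 WRKY and 7 bHLH genes 0 in either (0 in both at an unadjusted p under 0.05). UGT72E1, which glucosylates lignin precursors, was the 1 called among 47 UDP-glycosyltransferases. It had 535.5 and 481.9 in the line and 1015 and 951.8 in wild type (log2 -0.89, SE 0.13, adjusted p = 0.00309; 0.0509 without wild type replicate 1).

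Against the other groups of the line, which share the 4 h arrays with this comparison, the counts were larger. At 4 h 4773 probe sets (21.0%) differed from the uninduced line, 2513 (11.0%) higher and 2260 (9.94%) lower, and 2299 (10.1%) differed from 1 h, 1212 (5.33%) higher and 1087 (4.78%) lower. Over the 414 probe sets higher than in wild type, the median change was 1.03 against the uninduced line and 0.34 against 1 h. Over the 341 lower ones these medians were -0.82 and -0.57. The 3 comparisons use the same 2 arrays of the line at 4 h, so these values are not independent of each other.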

How the data were processed

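The authors deposited a MAS5 signal intensity for each probe set on each array, per the submitters' processing notes. The software version is not given in the sources used here, and each array's trimmed mean is 500.05. Of 22810 probe sets 64 controls were left out. Names came from the platform annotation, in which 13513 of 22746 probe sets (59.4%) list a single gene and 503 several, with symbols from RefSeq TAIR10.1 (13436 matched). Signals were used as log2(signal + 45), which understates changes of low genes. Using limma 3.58.1 under R 4.3.3, 1 mean per group was fitted to 8 arrays with lmFit and moderated by eBayes (trend = TRUE), with 4 residual and 6.79 prior degrees of freedom and Benjamini-Hochberg adjustment over 22746 probe sets. The number of arrays limits the precision. On simulated data for the line against wild type at 4 h (22746 probe sets), 100 probe sets were changed by 1 and 100 by 2 on the log2 scale. Of the changes of 1, 48% were recovered, and of those of 2, 100%, with 15 false calls. The false calls are to be set against the changed probe sets recovered, not against all 22746.

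Named genes are the 12 largest called rises and 12 largest called falls among probe sets with a single gene and arrays that do not overlap, up to 4 called members of each list or family, all members of short seed lists, and called genes with a symbol, a part added after values were seen. The members and lists were chosen with earlier results of these data known.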

Additional observations from a re-analysis of the deposited data

How the results depend on the processing

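In the line against wild type at 4 h, the count of 755 was 345 with no mean-variance trend (217 higher, 128 lower) and 249 to 341 without 1 array. It was 607 to 996 under the other alternatives, namely pseudocounts of 1 and 150, a filter on low signal, quantile normalization, the replicate number as a block and a fit of the 2 groups alone. For 4 h against uninduced, 4773 became 3065 to 3491 without 1 array, the lowest without line 4 h replicate 2. For 4 h against 1 h, 2299 became 1207 with no trend, 1434 with the 2 groups alone and 1096 to 1907 without 1 array. The causes were not tested.

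Same-numbered arrays of different groups deviated from their group means with correlations of -0.058 to 0.035, so the numbers do not pair them. With the replicate block 721 probe sets were called, and 7 of the 97 called named genes lost their call, LEA18, YUC6, GH3.3 and SWEET11 among them. Of those 97, the calls lost with no trend were 36, with the 2 groups alone 23, with a pseudocount of 150 8, with a pseudocount of 1 4 (AT1G65090 among them) and with quantile normalization 2. EEL gained a call under the filter. Under these alternatives other than the filter, 10 to 12 of the 57 members of the seed lists were higher and 0 lower. The filter kept 25 of the 57, of which 14 were higher and 0 lower. The 2 line arrays of a rise can meet that filter alone, so its count is not set against the others. Values that changed sign belong to genes near the bottom of the scale that were not called. Without 1 array, ATOEP16-2 ran from -1.07 to 0.073, BBM from -0.126 to 0.006, AT5G45690 from -0.049 to 0.067 and AT5G01300 from -0.4 to 0.568, the last also at -0.031 with a pseudocount of 1. The promoter motif search was not run.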
